A study of Mus musculus with 38 samples.

Results

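Tcf21 lineage cells titled KO and taken from mice fed a high-fat diet for 12 weeks were compared with KO lineage cells from mice at 3 weeks of age. The 7 RNA-seq libraries of this comparison, 2 at 12 weeks of diet (12W HFD) and 5 at 3 weeks of age (3W), were chosen by their column names in the KO table, out of 38 libraries in the series. The series profiles sorted Tcf21 lineage cells of mouse by RNA-seq (29 libraries) and ATAC-seq, a map of open chromatin, at several ages and diets and in WT and KO cells. The 12W HFD mice began a Teklad high-fat diet at 6 weeks of age and were therefore 18 weeks old at its end, whereas the 3W mice had a regular diet (LabDiet). Age and diet therefore differ together and cannot be told apart, and no KO library of adult mice on a regular diet is part of the comparison. KO cells of mice given the high-fat diet for 1 week from 6 weeks of age (1W HFD, 2 libraries) entered the fit for their spread. The background in WT cells was 7 libraries at 3W and 5 at 12W HFD. Lineage cells were defined by tamoxifen-induced MerCreMer, gavaged at 75 mg/kg a day to adult mice or given at 100 µg a day to neonates. The promoter that drives MerCreMer, the dosing age of each group and the part of Tcf21 that is deleted are not given in the labels. Each RNA library came from 5000 FACS-sorted cells. The labels do not say whether libraries of a group came from separate mice, so p-values measure the spread between these libraries, which may be technical. The genotype field reads WT for the 7 libraries, against their titles and column names; genotype was taken from the titles, and each statement on KO cells rests on them.

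Tcf21 is a basic helix-loop-helix transcription factor of mesenchymal cells in visceral organs and fat, where it marks progenitors that lie between fibroblast and adipocyte fates. Such progenitors, in white adipose tissue, make extracellular matrix and growth factor binding proteins, and a share of them can store lipid under the control of Pparg and the C/EBP factors. During a long high-fat diet, adipose tissue is known to gather macrophages and mast cells, and its progenitors are known to secrete chemokines, complement and matrix proteases.

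Values are given in TPM, a length-corrected share of each library's transcripts, so levels of different genes can be compared but no read depth is known. The 9 KO columns summed to 938593 to 956206 TPM and held 12005 to 12515 genes at 1 TPM or more. Correlations of log2(TPM + 1) across the genes tested were 0.901 to 0.953 within 3W, 0.947 between the 12W HFD libraries and 0.856 to 0.903 between the groups. Markers of fibroblasts and progenitors such as Dcn, Pdgfra and Col3a1 were abundant in every library. Their summed level was 47655 to 68550 TPM at 3W and lower, 34587 to 42762 TPM, at 12W HFD. They are general markers of such cells, so their abundance does not check the sort for the Tcf21 lineage. Of these 12 markers 1 was called lower, Cd34, and 0 were called higher.

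Tcf21 itself lies on chromosome 10 at 22817281 to 22820174 in the deposited coordinates (mm10, per the submitters' processing notes). Its level at 3W was 20.01, 60.9, 21.9, 48.2 and 25.1 TPM, and at 12W HFD it was 5.67 and 1.64 TPM. Both 12W HFD values lay below the 3W range, at 10.4% of the 3W mean, and the 1W HFD values were 8.10 and 16.4 TPM. The fall was 2.97 on the log2(TPM + 1) scale (SE 0.51, limma adjusted p = 0.0040), and an exact two-sided permutation test gave p = 0.0476, the smallest p that its 21 splits allow. In WT cells, whose table was normalized separately, the mean fell from 64.9 TPM at 3W to 9.37 TPM at 12W HFD. Reads of Tcf21 therefore remained in KO cells, and they check the titles only weakly because the deleted part is not given. Without the second 12W HFD library the limma call for Tcf21 was lost, and without the other libraries in turn it was kept.

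Between 3W and 12W HFD the largest rises in KO cells were led by genes of macrophages and mast cells, and the largest falls by genes of early growth and of adipocytes. Of 13970 genes tested, 495 were higher (3.54%) and 282 lower (2.02%) at 12W HFD, 5.56% in all, by limma on log2(TPM + 1) with a Benjamini-Hochberg adjusted p under 0.05. The median change over all genes tested was -0.05 on the log2 scale. That median and the shares of 3.54% and 2.02% are the background for the gene lists below. Libraries of the groups did not overlap for 1342 genes higher at 12W HFD (9.61%) and for 1453 lower (10.4%). With 2 libraries at 12W HFD the counts rest on both: 247 genes were higher and 148 lower without the first of them, and 121 and 75 without the second; such a fit takes the spread of the lone library from the other groups. Of the 777 called genes 714 were tested in each of these fits, and 0 of them changed sign. A kept sign was likely in advance, since these fits reuse libraries that gave the calls.

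Mmp12, the macrophage elastase, rose most. It read 0.17, 0.16, 0.15, 0 and 0.72 TPM at 3W and 263 and 1575 TPM at 12W HFD, a change of 9.05 on the log2 scale (SE 0.59, limma adjusted p = 7.4e-06). Spp1, which encodes osteopontin, read 1.41, 0.38, 1.16, 0.8 and 0 TPM at 3W and 119 and 1754 TPM at 12W HFD, a change of 8.10 (SE 0.78). For both genes the 12W HFD libraries differed several-fold between themselves and still lay far above every 3W library. The mast cell tryptase genes Tpsb2 and Tpsab1 were listed at 0 in the 5 libraries at 3W. Tpsb2 read 83.8 and 250 TPM at 12W HFD and Tpsab1 read 37.5 and 174 TPM (limma adjusted p = 3.1e-05 and 4.6e-05). The tryptase genes are close paralogs, so their split of reads is uncertain. Cpa3 and Cma1, which encode other mast cell proteases, rose with them. Cpa3 is a carboxypeptidase gene and reached 65.9 and 185 TPM from a 3W mean of 0.14 TPM, and Cma1, a chymase gene, reached 60.4 and 164 TPM from 0.40 TPM.

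Further rises were in leukocyte genes and in 2 genes that stromal cells can also make. Ctss, the lysosomal protease cathepsin S, read 11.6, 6.41, 5.42, 7.89 and 7.76 TPM at 3W and 345 and 1014 TPM at 12W HFD (log2 change 6.11, SE 0.39). Trem2, a lipid-sensing macrophage receptor, rose from 0.63 ± 1.14 TPM (SD, n = 5) to 65.6 and 158 TPM. Rgs1, a regulator of G protein signalling in leukocytes, rose from a mean of 0.91 to 77.0 and 206 TPM, and Itgb2, the beta chain of the leukocyte integrins, from 0.85 to 33.9 and 184 TPM. These genes separated the groups in every library, which the rule for naming them required. Aldh1a2, which makes retinoic acid, read 3.75, 11.1, 3.41, 1.29 and 0.21 TPM at 3W and 150 and 239 TPM at 12W HFD (log2 change 5.68, SE 0.83, limma adjusted p = 0.0014). Saa3, an acute phase serum amyloid A, read 1.28, 0.24, 86.0, 8.03 and 9.94 TPM at 3W and 561 and 1445 TPM at 12W HFD, and its call (limma adjusted p = 0.034) was lost without either 12W HFD library or without 3W library 2, 4 or 5. At 1W HFD Saa3 was at 20.4 TPM in one library and 3825 TPM in the other.

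The falls were led by genes of early growth. Dlk1, the preadipocyte factor that restrains adipogenesis, read 33.8, 155, 67.6, 100.99 and 107 TPM at 3W and was listed at 0 in both 12W HFD libraries (limma adjusted p = 3.1e-05). Car3, a carbonic anhydrase abundant in adipocytes, read 3364, 758, 1175, 230 and 2798 TPM at 3W and 43.2 and 9.23 TPM at 12W HFD (log2 change -5.75, SE 0.84). Igfbp3, which binds insulin-like growth factors, read 149, 748, 1088, 647 and 523 TPM at 3W and 20.1 and 10.2 TPM at 12W HFD (log2 change -5.10, SE 0.71). The 3W values of these genes spread widely, and none of them came near the 12W HFD values. Rbp4, the plasma carrier of retinol, fell from 649 ± 395 TPM (SD, n = 5) to 39.8 and 12.6 TPM. Itm2a, a membrane protein gene, read 1250, 1805, 1059, 1816 and 1330 TPM at 3W and 120 and 47.9 TPM at 12W HFD (log2 change -4.21, SE 0.34), the tightest of the 12 falls. Agtr2, the type 2 angiotensin receptor, fell from a mean of 39.3 to 1.21 TPM.

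The other falls named by size were Slc7a10, an amino acid transporter of adipocytes, Nrk, a kinase gene, Sapcd1, Lsamp, a neural adhesion molecule, Igf2 and Stc1. Their log2 changes ran from -4.57 for Slc7a10 to -4.17 for Igf2. Igf2, the fetal growth factor, read 25.2, 118, 72.3, 84.0 and 34.6 TPM at 3W and 3.33 and 1.45 TPM at 12W HFD. The call of Stc1 (limma adjusted p = 0.040), a secreted glycoprotein, was lost without any one of the 12W HFD libraries or of 3W libraries 2 to 5, and 3W library 1 was itself at 2.52 TPM, next to 2.51 and 0.54 TPM at 12W HFD.

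**Figure D1:**
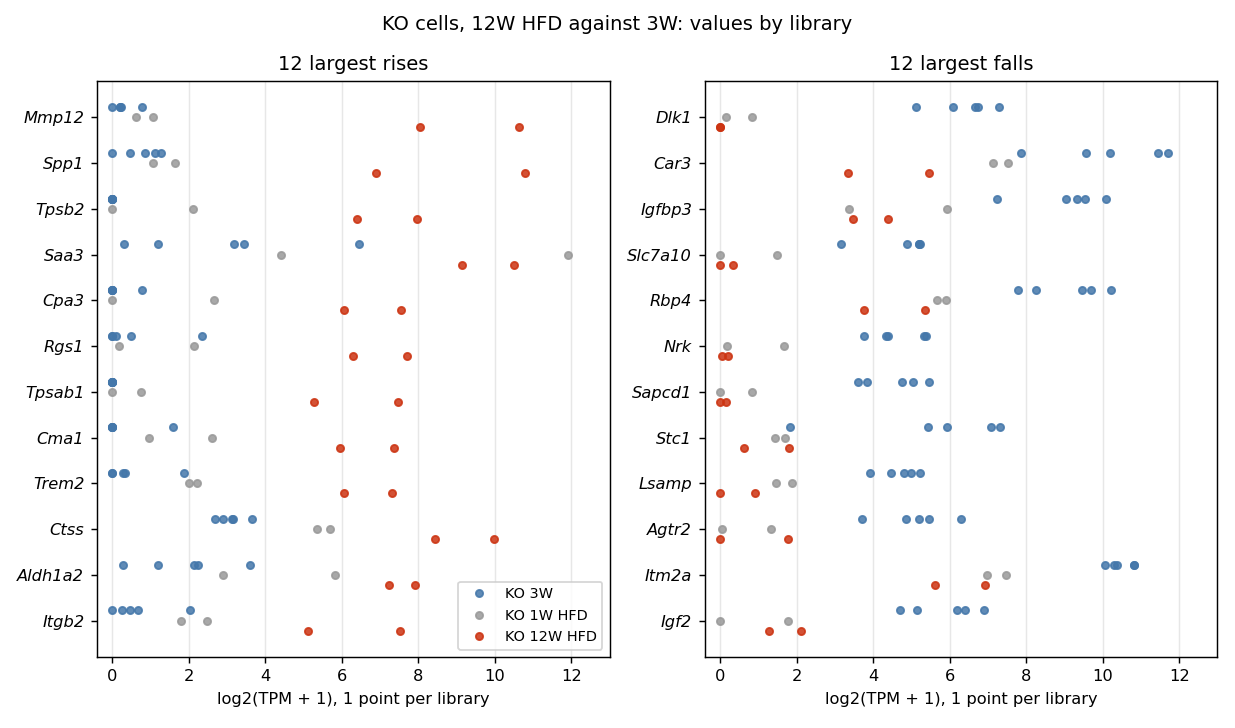
log2(TPM + 1) in each KO library (1 point per library; blue 3W, grey 1W HFD, red 12W HFD) for the 12 largest rises (left) and the 12 largest falls (right). By the naming rule, the red points lie to the right of every blue point for each rise and to the left for each fall. Dlk1 is at 0 in both 12W HFD libraries.

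The ATAC-seq peaks of KO cells at 3W, a readout the comparison did not use, were set beside these calls. A gene was counted as open when both KO 3W ATAC libraries (84876 and 78643 peaks, covering 146.4 and 103.0 Mb) had a peak within 250 bases of either end of the gene in the deposited coordinates, a measure chosen after the data were seen. By it, 85.6% of all genes tested were open, 53.9% of the genes called higher (267 of 495) and 88.7% of the genes called lower (250 of 282). Of the genes called higher, 200 had no peak at either end in either library (40.4%, against 11.7% of all genes tested). The genes called higher were also low at 3W, since 40% of them had a 3W mean under 1 TPM against 10.7% of all genes tested and 0% of those called lower. Among genes with a 3W mean of at least 1 TPM the open share was 74.7% of those called higher (222 of 297), 88.7% of those called lower and 90% of all, a split added after the data were seen. How far the 3W level sets the remaining gap was not tested. The series holds no ATAC-seq library of KO cells at 12W HFD, so no change of openness is given.

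Open shares differed between the gene lists. Of 20 macrophage markers tested 3 were open at 3W, of 9 markers of neutrophils and mast cells 1, and of 9 markers of T and NK lymphocytes 1, whereas 12 of 12 fibroblast and progenitor markers and 17 of 17 collagen genes were open. Of the list members called higher, 9 of 12 chemokine genes, 5 of 6 genes of committed preadipocytes and 3 of 3 collagen genes were open, and 2 of 17 macrophage markers. Other lists were mixed, with 7 of 13 genes of lipid-associated macrophages, 5 of 8 cytokine genes, 3 of 6 matrix proteases and 3 of 8 complement genes open. Open genes that rose included Aldh1a2, Cxcl14, C4b, Cfb and Col8a1. RefSeq start windows matched 10441 of the genes tested (74.7%, too few for a check of the whole set). With them instead, the shares were 56.9% of the genes called higher, 93.1% of those called lower and 91.2% of all matched genes. Both measures gave the same answer for 93.7% of the matched genes. List shares moved both ways between the measures, with different genes matched. Imprinted genes were open for 10 of 14 by gene ends and 11 of 11 by start windows. Chemokine genes were open for 14 of 20 and 7 of 13, and complement genes for 13 of 19 and 6 of 12. Lgals3 was among the genes open by the start window alone.

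**Figure D2:**
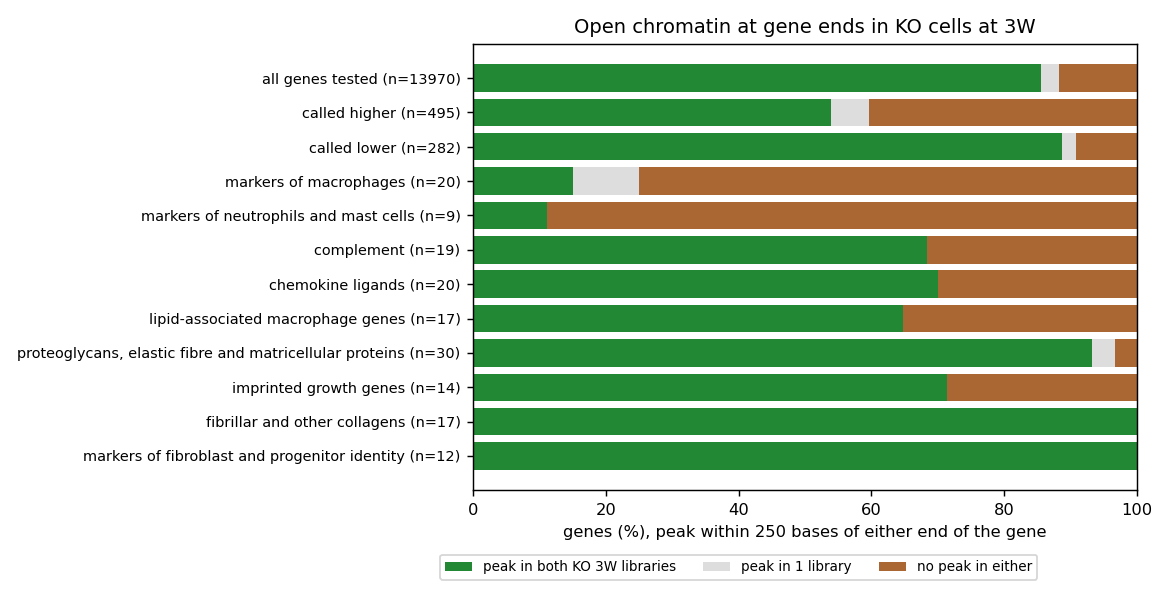
Percentage of genes with a peak at a gene end in both KO 3W ATAC libraries (green), in 1 (grey) or in neither (brown), for all genes tested, the calls and selected lists, with the number of genes in brackets. Genes called higher reach 53.9% against 85.6% of all genes tested, and 3 of 20 macrophage markers are open.

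The 250 bases before the start of 5 genes are shown because they place strong rises and falls beside closed and open windows at 3W. They are RefSeq promoter sequences on GRCm38.p6, the mm10 assembly, written 5′ to 3′ on the gene's strand. Capitals mark matches, on either strand, to the E-box CAGCTG, the AP-1 letters TGANTCA, the C/EBP letters TTGCNNAA and the TATA letters TATAAA; no matches overlapped. Over 32851 such windows 13% held CAGCTG, 6.75% TGANTCA, 9.56% TTGCNNAA and 12.4% TATAAA, so a match here is a description of letters. Mmp12 and Ctss, which rose, had no KO 3W peak over the RefSeq window, which runs on 50 bases past the start; Aldh1a2, which rose, and Igfbp3 and Dlk1, which fell, had one in both libraries. The windows are chr9:7344147-7344396 (plus strand) for Mmp12, chr3:95526536-95526785 (plus strand) for Ctss, chr9:71215539-71215788 (plus strand) for Aldh1a2, chr11:7213924-7214173 (minus strand) for Igfbp3 and chr12:109452573-109452822 (plus strand) for Dlk1.
Mmp12: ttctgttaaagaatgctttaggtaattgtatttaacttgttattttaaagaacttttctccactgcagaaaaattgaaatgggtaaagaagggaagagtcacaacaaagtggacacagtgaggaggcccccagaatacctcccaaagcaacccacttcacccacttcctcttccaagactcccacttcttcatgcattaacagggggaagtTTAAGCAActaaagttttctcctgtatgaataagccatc
Ctss: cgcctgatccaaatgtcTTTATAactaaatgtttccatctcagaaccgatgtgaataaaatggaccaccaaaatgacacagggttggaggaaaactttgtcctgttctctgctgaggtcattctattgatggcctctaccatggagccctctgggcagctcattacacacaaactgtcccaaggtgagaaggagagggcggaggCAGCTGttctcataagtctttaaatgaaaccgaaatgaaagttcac
Aldh1a2: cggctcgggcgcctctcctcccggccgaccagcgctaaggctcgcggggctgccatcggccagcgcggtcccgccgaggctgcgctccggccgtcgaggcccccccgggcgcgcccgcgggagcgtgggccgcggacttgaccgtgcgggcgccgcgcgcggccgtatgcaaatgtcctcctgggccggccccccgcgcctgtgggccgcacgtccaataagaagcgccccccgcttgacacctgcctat
Igfbp3: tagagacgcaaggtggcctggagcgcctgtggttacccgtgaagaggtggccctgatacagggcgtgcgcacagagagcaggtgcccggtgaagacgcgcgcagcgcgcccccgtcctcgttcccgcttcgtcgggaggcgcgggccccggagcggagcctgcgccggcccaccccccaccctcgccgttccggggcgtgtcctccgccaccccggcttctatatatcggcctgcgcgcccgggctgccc
Dlk1: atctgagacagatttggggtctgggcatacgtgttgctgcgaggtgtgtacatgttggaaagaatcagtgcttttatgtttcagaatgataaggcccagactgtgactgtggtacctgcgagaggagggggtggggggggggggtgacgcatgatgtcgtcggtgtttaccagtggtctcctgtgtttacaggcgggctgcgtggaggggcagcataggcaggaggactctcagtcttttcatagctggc
The Mmp12 window held a C/EBP match at base 212, and the Ctss window an E-box at base 205 and TATA letters at base 18, counted from the 5′ end of the window. The Aldh1a2, Igfbp3 and Dlk1 windows held none of the 4 motifs. For Dlk1 the peak of the second library began after the last base shown.

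Macrophage genes rose as a group. Of 20 macrophage markers tested 17 were called higher and 0 lower, with a median log2 change of 3.33 against -0.05 over all genes. Cd68, a lysosomal marker of macrophages, read 15.7, 11.2, 8.84, 10.5 and 11 TPM at 3W and 206 and 397 TPM at 12W HFD (log2 change 4.55, SE 0.32). Lyz2, lysozyme M, read 140, 27.7, 16.7, 20.3 and 48.6 TPM at 3W and 736 and 3549 TPM at 12W HFD (5.43, SE 0.71). Adgre1, which encodes F4/80, rose from a mean of 1.42 to 33.8 and 58.6 TPM. The complement subunit genes C1qa, C1qb and C1qc, typical of tissue macrophages, rose by 3.18 to 3.51. The summed level of the 20 markers was 154 to 748 TPM at 3W, 1386 to 1471 TPM at 1W HFD and 3551 to 7428 TPM at 12W HFD, which is 0.375% to 0.784% of the column total. The libraries are bulk, so more macrophages among the sorted cells and more macrophage RNA per cell cannot be told apart. Without the second 12W HFD library 10 of the 17 calls were counted, and 14 without the first.

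Genes of lipid-associated macrophages, a state known from obese adipose tissue, moved with them. Of 17 tested 13 were called higher and 0 lower (median 1.97); 6 were called without the second 12W HFD library. Lgals3, which encodes galectin-3, read 18.8, 13.6, 25.6, 22.7 and 22 TPM at 3W and 619 and 1131 TPM at 12W HFD (log2 change 5.31, SE 0.30, limma adjusted p = 4.0e-06), the smallest p of the comparison. Atp6v0d2, a subunit of the lysosomal proton pump, rose from a mean of 0.11 to 36.8 and 44.8 TPM. Smaller rises were seen for genes that many cells express: Ctsb, cathepsin B, read 952, 585, 796, 790 and 763 TPM at 3W and 2541 and 3285 TPM at 12W HFD, and Lipa, lysosomal acid lipase, rose from 60.2 ± 9.56 TPM (SD, n = 5) to 159 and 349 TPM. Their log2 changes were 1.91 and 1.97.

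Mast cell genes rose and neutrophil genes did not pass the test. Of 9 markers of neutrophils and mast cells tested 4 were called higher, Tpsb2, Cma1, Cpa3 and Mcpt4, which are mast cell proteases. The summed level of the list was 0.19 to 6.13 TPM at 3W and 234 to 639 TPM at 12W HFD. S100a8 and S100a9, the calprotectin genes of neutrophils, had means of 1.31 and 0.62 TPM at 12W HFD, and Kit, the mast cell growth factor receptor, had a mean of 1.83 TPM against 0.54 at 3W (limma adjusted p = 0.46). Of 9 markers of T and NK lymphocytes 3 were called higher, Nkg7, Il7r and Gzmb, and their 12W HFD means were 14.6, 3.46 and 2.48 TPM; 1 of the list was called without the first 12W HFD library and 0 without the second. Of 6 markers of B and plasma cells none was called by limma, with summed levels of 8.93 to 552 TPM at 3W and 280 and 3543 TPM in the 12W HFD libraries, where Igkc and Jchain made most of the higher value (adjusted p = 0.094 for each). Genes and segments were also picked by an immunoglobulin prefix of the symbol alone, the list's own included. Of 95 tested 9 were called higher and 0 lower, beside 3.54% higher and 2.02% lower over all genes tested. Igha, the IgA heavy chain constant gene, read 0, 0.17, 0, 0.88 and 0 TPM at 3W and 784 and 54.8 TPM at 12W HFD (log2 change 7.48, SE 1.13, adjusted p = 0.0018 by limma); it was chosen after its values were seen. Endothelial markers were called higher for 2 of 16, Plvap and Flt1, and lower for none, and for 0 without either 12W HFD library. Erythroid markers summed to 577 to 6731 TPM at 3W and to 3477 and 15862 TPM at 12W HFD, with 0 of 5 called.

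**Figure D3:**
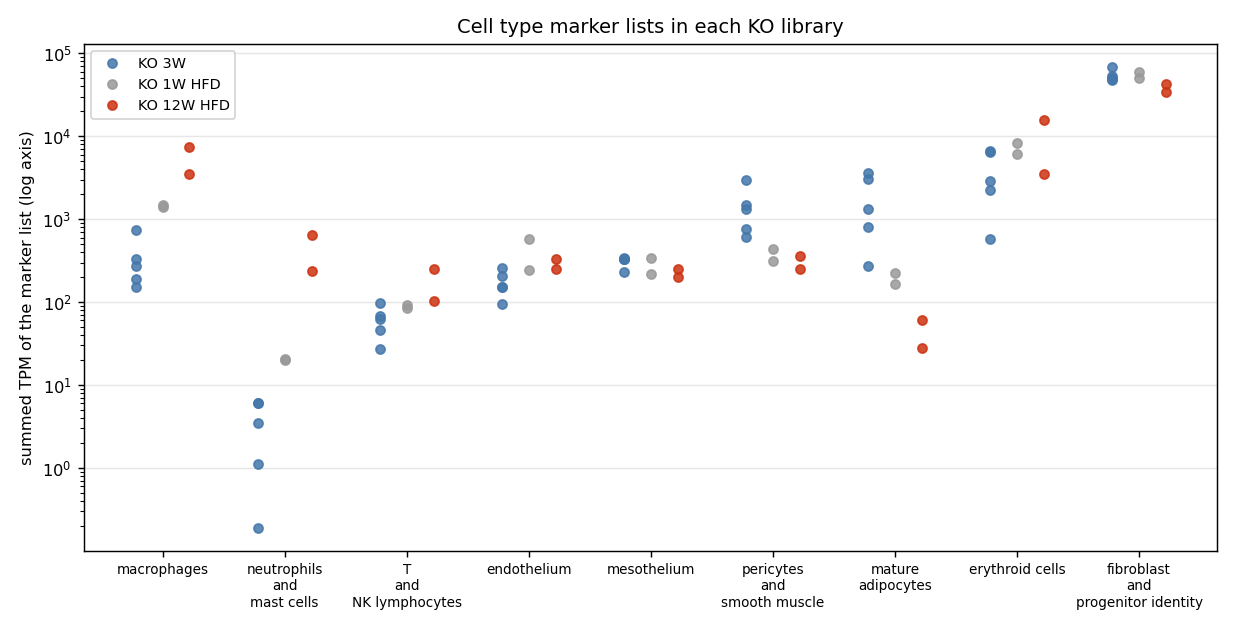
Summed TPM (log axis) of each cell type marker list in every KO library (blue 3W, grey 1W HFD, red 12W HFD). Macrophage markers lie at 154 to 748 TPM at 3W and 3551 to 7428 TPM at 12W HFD; fibroblast and progenitor markers lie at 47655 to 68550 and 34587 to 42762 TPM.

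Chemokine ligands, the secreted attractants of leukocytes, were higher for 12 of 20 and lower for 0 (median 2.71). Cxcl14, a chemokine of stromal cells, read 35.6, 33.9, 23, 28.4 and 20.3 TPM at 3W and 450 and 259 TPM at 12W HFD (log2 change 3.58, SE 0.38). Cxcl12, which retains leukocytes and progenitors in stromal niches, read 591, 563, 839, 477 and 357 TPM at 3W and 3034 and 2878 TPM at 12W HFD (2.44, SE 0.35). The 12W HFD libraries agreed closely for Cxcl12, whereas Ccl9, a ligand made by myeloid cells, read 96.9 and 191 TPM from a 3W mean of 4.53. Ccl8 rose from a mean of 12.8 to 199 and 215 TPM, and Ccl11, eotaxin, from 746 to 1712 and 1640 TPM. Macrophage markers rose in the same libraries (summed level 154 to 748 and 3551 to 7428 TPM), and their part in the chemokine counts was not tested. Without the second 12W HFD library 2 of 20 were called, and 10 without the first.

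Complement genes, whose proteins tag cells and debris for clearance, were higher for 8 of 19 and lower for 1 (median 1.05). C4b read 7.83, 18.8, 16.9, 11.4 and 4.79 TPM at 3W and 398 and 277 TPM at 12W HFD (log2 change 4.83, SE 0.54). Cfb, factor B of the alternative pathway, read 103, 52.5, 122, 116 and 59.1 TPM at 3W and 1011 and 989 TPM at 12W HFD (3.53, SE 0.47). C3, the central component, rose from 331 to 1458 and 1381 TPM. The fall was that of Cfd, adipsin, an adipocyte product listed at 0 in both 12W HFD libraries and at 1.25 to 24.8 TPM at 3W. Of the acute phase list 3 of 17 were higher, Serpina3n, Serpina3m and Saa3; Serpina3n, a protease inhibitor, rose from 111 to 841 and 654 TPM. The 3 acute phase calls were lost without either 12W HFD library. Without the second, 5 complement genes were higher and 0 lower. The complement list shares the 3 C1q genes with the macrophage markers, which rose in the same libraries (summed level 154 to 748 and 3551 to 7428 TPM), and the part of macrophages in the other calls was not tested.

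Cytokine genes and NF-kB targets were higher for 8 of 24 and lower for 0 (median 1.07). Il1rn, the interleukin-1 receptor antagonist, was listed at 0 in the 3W libraries and read 13.8 and 26.6 TPM at 12W HFD (limma adjusted p = 8.9e-05). Il1r1, the receptor itself, read 32.6, 10.4, 32.2, 17.9 and 25.9 TPM at 3W and 157 and 116 TPM at 12W HFD (log2 change 2.56, SE 0.40). Il1b and Tnf, the main proinflammatory cytokines, reached 11.9 and 10.2 TPM and 8.60 and 7.66 TPM from means of 0.27 and 0.66 TPM. With either 12W HFD library left out 2 of the 24 were called. Of 6 MHC class II genes, whose products present antigen, 4 were higher (median 2.98), among them Cd74 at 1187 and 674 TPM against 32.1 to 374 TPM at 3W; none of the 4 calls was kept without either 12W HFD library. Of 12 MHC class I genes 2 were higher, B2m and H2-K1, with B2m at 4434 and 4785 TPM against 986 to 2543 TPM at 3W; 0 were called without either 12W HFD library. Macrophage markers (17 of 20 called higher) rose in the same libraries as these cytokine and MHC genes, and their part in the counts was not tested. The macrophage list shares Cd74 with the class II list. None of 24 interferon response genes was called by limma (median 0.21).

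**Figure D4:**
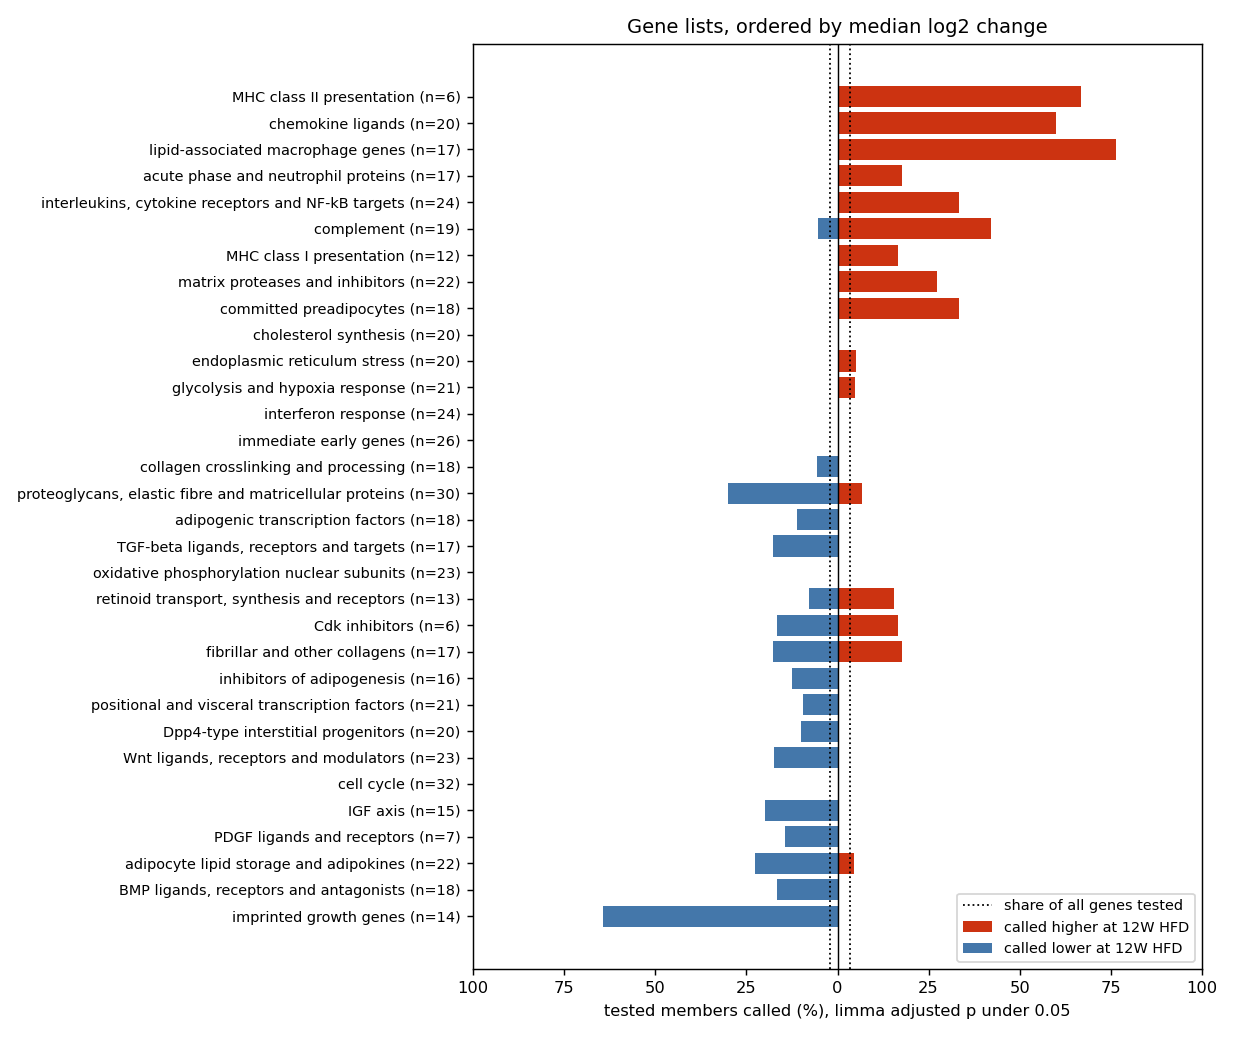
Percentage of tested members called higher (red) or lower (blue) at 12W HFD in each pathway list, ordered by the list's median log2 change, with the number tested in brackets. Dotted lines mark 3.54% higher and 2.02% lower over all genes tested; 13 of 17 lipid-associated macrophage genes are called higher and 9 of 14 imprinted growth genes lower.

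Matrix genes moved in both directions. Of 22 matrix proteases and inhibitors 6 were higher and 0 lower, and 2 were higher without the second 12W HFD library. The 6 include Mmp12, a macrophage gene, and macrophage markers rose in the same libraries; their part in the count was not tested. Mmp11, stromelysin-3, a stromal protease, read 6.73, 13.4, 31.4, 24.9 and 10.2 TPM at 3W and 130 and 121 TPM at 12W HFD (log2 change 2.98, SE 0.46). Timp1, the protease inhibitor, rose from 81.2 ± 26.4 TPM (SD, n = 5) to 728 and 1064 TPM. Of 17 collagen genes 3 were higher and 3 lower. Col8a1, a short-chain collagen, read 2.49, 0.76, 3.93, 3.8 and 1.41 TPM at 3W and 46.1 and 122 TPM at 12W HFD (4.56, SE 0.50). Col1a2, a chain of fibrillar type I collagen, read 2549, 2632, 3247, 4162 and 3472 TPM at 3W and 879 and 1077 TPM at 12W HFD (-1.70, SE 0.29). Col4a1 and Col18a1, of basement membranes, were higher, and Col14a1 and Col12a1, which bind fibrils, were lower. Outside this list the basement membrane chains Col4a3, Col4a4 and Col4a5 were called lower (log2 changes -3.77, -3.87 and -2.70). Col1a1 had means of 3986 and 1139 TPM (limma adjusted p = 0.067). Without the first 12W HFD library 2 collagen genes were higher and 0 lower, and without the second 1 and 1.

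Elastic fibre and small proteoglycan genes made most of the matrix falls. Of 30 genes of proteoglycans, elastic fibres and matricellular proteins 9 were lower and 2 higher (median -0.07), and 3 and 1 without the second 12W HFD library. Eln, elastin, read 161, 175, 244, 453 and 473 TPM at 3W and 29.01 and 17.9 TPM at 12W HFD (log2 change -3.52, SE 0.44). Mfap4, a microfibril-associated protein, read 1201, 1103, 1180, 3416 and 1956 TPM at 3W and 166 and 184 TPM at 12W HFD (-3.18, SE 0.39). Fbln5, needed for elastic fibre assembly, fell from 737 to 204 and 157 TPM. Fmod, Omd, Ogn and Aspn, small leucine-rich proteoglycans, fell by 1.76 to 2.80 on the log2 scale. The rises were Spp1 and Bgn, biglycan, which read 1757 and 3068 TPM against a 3W mean of 768.

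Imprinted growth genes, expressed from 1 parental allele and active in early growth, fell as a group. Of 14 tested 9 were lower and 0 higher (median -2.12 against -0.05 over all genes); 4 further listed genes have no row by their symbol in the KO table. Mest read 139, 81.3, 138, 124 and 143 TPM at 3W and 17.2 and 6.53 TPM at 12W HFD (log2 change -3.40, SE 0.34). Peg3, a zinc finger gene, read 61.5, 70.7, 118, 164 and 232 TPM at 3W and 10.1 and 8.56 TPM at 12W HFD (-3.49, SE 0.45). Cdkn1c, the p57 cell cycle inhibitor, fell from 292 to 90.5 and 38.3 TPM. Dlk1 and Igf2 belong to the same list, and Grb10, Nnat, Plagl1 and Ndn were the other calls. Igf2r, the clearance receptor of Igf2, and Gnas had log2 changes of -0.085 (SE 0.38) and -0.21 (SE 0.35), with overlapping libraries. Without the second 12W HFD library 5 of the 14 were called and without the first 6.

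In the growth factor lists falls were called and no rise was, beside 2.02% lower and 3.54% higher over all genes tested. The IGF axis was lower for 3 of 15, Igfbp3, Igf2 and Igfbp6. BMP ligands, receptors and antagonists had a median of -1.02 with 18 of 18 log2 changes below 0. Called lower were 3, among them Bmp4, a ligand, and Chrdl1, which binds BMP ligands. Bmper, a BMP-binding protein gene outside this list, was called higher (log2 change 2.69, 12W HFD mean 456 TPM). Bmp4 read 33.1, 87.8, 127, 107 and 112 TPM at 3W and 23.1 and 14.5 TPM at 12W HFD (log2 change -2.16, SE 0.49). The 12W HFD values lay below each 3W value, though the first 3W library was close to them. Of 23 Wnt genes 4 were lower, Wnt5a, Rspo3, Sfrp1 and Wnt6 (median -0.72). Wnt5a, a ligand that restrains adipogenesis, read 42.0, 80.1, 45.3, 45.5 and 46.5 TPM at 3W and 7.94 and 2.06 TPM at 12W HFD (-3.29, SE 0.44). Of 17 TGF-beta genes 3 were lower; Tgfbi, an induced matrix protein, fell from 518 to 45.1 and 46.5 TPM and Ltbp4, which binds latent ligand, from 315 to 106 and 41.9 TPM. Of 7 PDGF genes 1 was lower, Pdgfrl. Without the second 12W HFD library no BMP gene was called, and 2 Wnt genes, 1 TGF-beta gene and 2 genes of the IGF axis were.

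Few regulators of adipogenesis were called, but the shares called lower, among them and among lipid storage genes, lay above that of all genes. Called lower were 11.1% of adipogenic transcription factors, 12.5% of inhibitors and 22.7% of lipid storage genes and adipokines, against 2.02% of all genes tested. Of 18 adipogenic transcription factors 2 were lower and 0 higher: Klf5, an early factor, read 11.9, 45.0, 39.7, 28.4 and 28.4 TPM at 3W and 1.86 and 2.13 TPM at 12W HFD (log2 change -3.28, SE 0.50), and Klf15 fell from a mean of 32.8 to 6.98 and 6.6 TPM. Pparg, the master regulator, had means of 37.2 and 49.5 TPM (0.59, SE 0.47, limma adjusted p = 0.62), and Cebpa had 9.88 and 7.20 TPM (adjusted p = 0.745). Of 16 inhibitors of adipogenesis 2 were lower, Dlk1 and Wnt5a. Of 22 lipid storage genes and adipokines 5 were lower, Car3, Mest, Adipoq, Cfd and Slc2a4, and Cd36, a fatty acid translocase, was higher. Adipoq, adiponectin, read 143, 24.6, 62.1, 9.88 and 129 TPM at 3W and 5.11 and 2.79 TPM at 12W HFD (-3.39, SE 0.80). Markers of mature adipocytes summed to 274 to 3657 TPM at 3W and 27.9 to 60.1 TPM at 12W HFD. Of 9 tested 4 were called lower, Car3, Adipoq, Cfd and Slc2a4. They are also 4 of the 5 falls of the lipid storage list, so the 2 counts are not separate. The other fall, Mest, is also in the list of imprinted growth genes. The part of mature adipocytes in these falls was not tested. The calls of Adipoq, Cfd and Slc2a4 were lost without either 12W HFD library.

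Genes of committed preadipocytes were higher for 6 of 18 and lower for 0 (median 0.75). Vcam1, an adhesion molecule of these cells, read 70.2, 32.8, 74.5, 45.0 and 45.7 TPM at 3W and 258 and 254 TPM at 12W HFD (log2 change 2.3, SE 0.30). Plin2, a lipid droplet coat protein also found in macrophages, rose from 211 to 628 and 1064 TPM, and Steap4, a metalloreductase, from 226 to 829 and 536 TPM. Genes of the Dpp4-type interstitial progenitors were lower for 2 of 20 and higher for 0 (median -0.65): Sema3c, a secreted guidance molecule, read 99.1, 103, 53.5, 68.7 and 88.6 TPM at 3W and 16.6 and 14.3 TPM at 12W HFD, and Smpd3 fell from 15.9 to 0.45 and 0.11 TPM. Without the second 12W HFD library 3 preadipocyte genes were called higher and 2 Dpp4-type genes lower. Retinoid genes split, with Aldh1a2 and Rdh10, a retinol dehydrogenase, higher and Rbp4 lower among 13 tested. Twist2, a mesenchymal transcription factor, fell from 115 to 31.3 and 20.6 TPM, and with Tcf21 it made the 2 of 21 positional factors that were called.

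Pathway lists with no call by limma, besides the interferon response, were cell cycle (0 of 32), immediate early genes (0 of 26), nuclear subunits of oxidative phosphorylation (0 of 23) and cholesterol synthesis (0 of 20). Cell cycle genes had a median of -0.76, and Cdk1 and Top2a read means of 51.0 and 26.4 TPM at 3W and 18.9 and 6.38 TPM at 12W HFD (adjusted p = 0.53 and 0.54), with overlapping libraries. Pericyte and smooth muscle markers were lower for 1 of 13, Myl9 (792 to 218 and 74.9 TPM). Of 11 mesothelial markers Nkain4 was lower (166 to 13.7 and 19.98 TPM) and Cldn15 higher (28.0 to 104 and 196 TPM). Msln, mesothelin, was at 0.04 and 0 TPM at 12W HFD and 0.05 to 3.56 TPM at 3W, and was not called. Of 5 Schwann cell markers Ncam1 was lower. Hif1a, the hypoxia factor, was higher as 1 of 21 glycolysis and hypoxia genes, and Calr as 1 of 20 genes of endoplasmic reticulum stress. These shares, 4.76% and 5%, lay near the 3.54% of all genes tested that were higher. The lower shares of pericyte, mesothelial and Schwann cell markers were 7.69%, 9.09% and 20%, 1 gene each, against 2.02% of all genes tested.

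The same interval in WT cells gave the background for KO cells. The test of the difference, the change in KO cells minus the change in WT cells over 29 libraries, called 0 of 15659 genes higher and 0 lower by limma (0% each), with 419 genes at an unadjusted p under 0.05 and a smallest adjusted p of 0.314. The 3W titles assign KO and WT libraries to pairs; with these pairs as a replicate block, 0 genes were again called in either direction. In WT cells, with 5 libraries at 12W HFD and 7 at 3W, the fit without the block called 1244 of 15659 genes higher and 976 lower. The 24 genes named above by size had the same sign in WT cells in 24 of 24 cases. They were picked for large changes in KO cells, and the share of same signs over all genes was not computed. Mmp12 changed by 7.93 (SE 0.58) in WT cells, and the difference was 1.12 (SE 1.02). Igf2 had the smallest difference p of the 24 (unadjusted p = 0.0095, adjusted p = 1): its log2 change was -6.28 in WT cells and -4.17 in KO cells. Aldh1a2 changed by 3.12 in WT cells against 5.68 (difference 2.56, SE 1.24, adjusted p = 1). A difference that misses the threshold does not show that KO and WT cells changed alike.

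**Figure D5:**
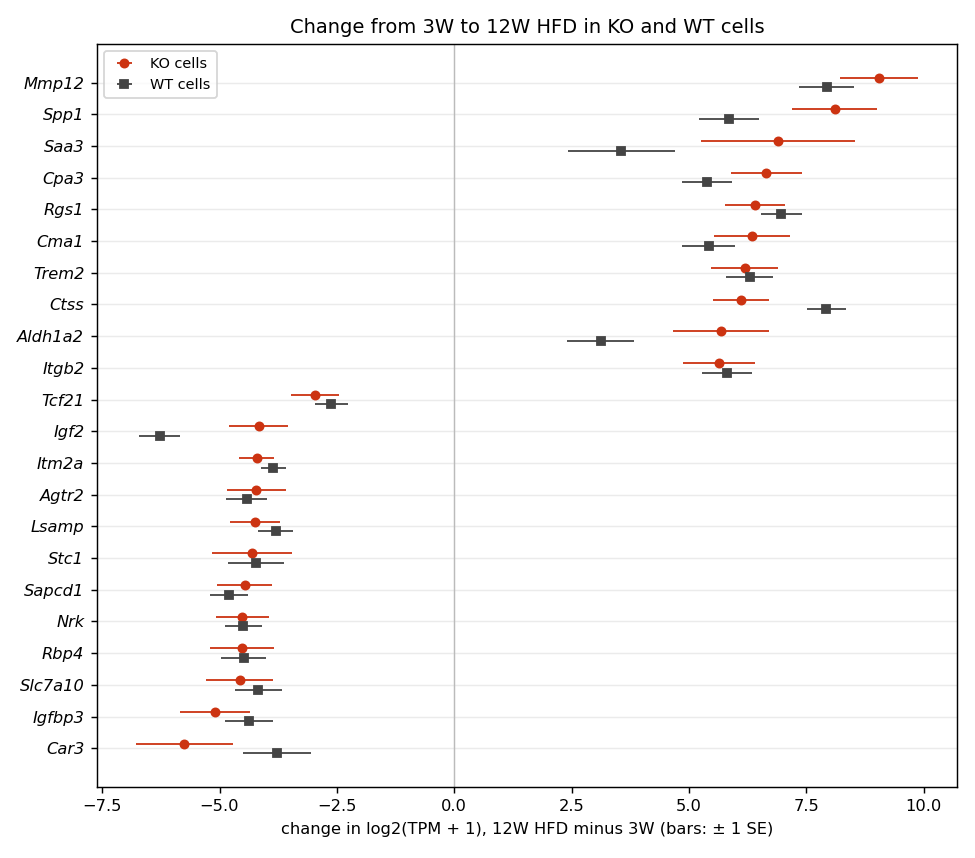
Change in log2(TPM + 1) from 3W to 12W HFD in KO cells (red circles) and WT cells (grey squares) for Tcf21 and the named genes, with bars of 1 SE from the fit over 29 libraries. Dlk1, Tpsb2 and Tpsab1 are left out because a KO group is listed at 0; every gene shown has the same sign in KO and WT cells.

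The genes with the smallest p for the difference are given as values, none of them called. Chl1, a neural adhesion molecule, read 0, 0, 0.73, 0 and 0.43 TPM in KO cells at 3W and 40.3 and 46.0 TPM at 12W HFD; in WT cells at 12W HFD it read 13.2, 0, 0.21, 1.11 and 2.34 TPM (adjusted p = 0.73). Cd74, the class II invariant chain, rose by 2.89 in KO cells and 6.79 in WT cells (difference -3.90, SE 1.05, adjusted p = 1). Its WT values at 12W HFD were 1861, 7444, 6815, 1969 and 1286 TPM, and levels are from tables normalized separately. Gpr34, a receptor of tissue macrophages, was at 0.15 and 0.08 TPM in KO cells at 12W HFD and at 3.68 to 15.6 TPM in WT cells (difference -3.23, SE 0.65, adjusted p = 0.314). The other genes with a negative difference were Pf4, Retnla, Cd86 and Cd3d. Of these Pf4, Cd86 and Cd3d had positive log2 changes in KO cells (1.59, 0.65 and 0.31) and larger ones in WT cells (3.99, 3.00 and 1.71). Retnla had -2.90 in KO and 3.57 in WT cells. The others with a positive difference, Otop1, Reg3g, Tnfsf8, Il4 and Cfi, were low, with KO 12W HFD means of 1.635, 3.21, 4.67, 1.39 and 12.63 TPM. Without the first WT 12W HFD library 4 genes passed as higher, Kng1, Otop1, Reg3g and Chl1, and 1 as lower, Gpr34; without the second KO 12W HFD library 5 immunoglobulin heavy chain segments passed as higher. Medians for MHC class II genes were 2.98 in KO and 6.00 in WT cells and for macrophage markers 3.33 and 5.10, with 0 differences called in either list.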

How the data were processed

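The authors deposited TPM values (transcript shares corrected for length) per gene, in 1 table for KO and 1 for WT cells, and ATAC-seq peaks called in each library with a −log10 q per peak. The submitters' processing notes name Trim Galore 0.6, FastQC, STAR 2.5.3a, RSEM, Bowtie2 2.3, MACS2 and mm10; settings and strand are not given in the sources used here. Here, limma 3.58.1 (R 4.3.3; tables and figures in Python 3.11.15) was fitted to log2(TPM + 1) of the 9 KO libraries with a mean-variance trend, for genes at 1 TPM or more in at least 2 libraries (13970 of 25746), with Benjamini-Hochberg adjustment over all of them. A log2 change on this scale understates the change of low genes. A second fit over 29 libraries tested the KO change minus the WT change. The code was tested on simulated data. TPM keeps no depth, so no counting error is given, and the number of libraries limits the precision.

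The members and the 45 gene lists were chosen with earlier results of these data known. Named are Tcf21, the 12 largest called changes in each direction with a mean of at least 10 TPM in the higher group and no overlap between groups (without immunoglobulin, T cell receptor, haemoglobin, ribosomal, mitochondrial and Gm or Rik genes), up to 4 members of a list with the smallest p or that define its name, and 6 genes in each direction for the difference. Other genes were chosen after their values were seen. Medians of lists include fitted values of genes listed at 0 in a group.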

Additional observations from a re-analysis of the deposited data

Results flagged for a closer look

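Among 68 sets of the 5 KO libraries at 3W, 10 held 1 library that stood apart from the others by Dixon's ratio. Chance gives about 1 in 20 for normally spread values, a rate that does not hold for genes near 0 TPM. For Cpa3 and Cma1, at 0 in the other libraries, the ratio is 1 by construction. The count of 10 is therefore not set against chance. Library 5 was high for Mmp12 (0.72 TPM, others 0 to 0.17) and Rgs1 (4.06 TPM, others 0 to 0.4). Library 4 was high for the mast cell genes Cpa3 (0.71 TPM, others 0) and Cma1 (2.02 TPM, others 0) and for the mean log2(TPM + 1) of the T and NK lymphocyte markers (0.995, others 0.565 to 0.647). Library 2 was high for Trem2 (2.66 TPM, others 0 to 0.26), low for Slc7a10 (7.89 TPM, others 28.5 to 36.58) and low for the mean of the collagen crosslinking genes (5.971, others 6.89 to 7.081). Library 1 was low for the means of the immediate early genes (6.026, others 7.905 to 8.259) and of the PDGF genes (4.287, others 4.985 to 5.208).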

How the results depend on the processing

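Of 233 genes refitted under 17 settings, the 140 called ones kept their sign wherever they were tested, and so did the 777 calls. Of the 777, 654 were tested at a 5 TPM filter and 714 without either 12W HFD library. The refits reuse the libraries that gave the calls, so a kept sign was likely in advance. With a block on the replicate number 60 of the 777 were still called. With no filter on low values 172 genes were lower in place of 282. Leaving out 1 library at a time gave 121 to 560 genes higher and 75 to 418 lower, 0 to 5 higher and 0 to 1 lower for the KO change minus the WT change, and a Tcf21 change of -3.64 to -2.30. Blocking on the replicate number left 39 genes higher and 22 lower. Deviations of same-numbered libraries from their group means correlated at -0.108 and -0.102. With 2 libraries at 12W HFD these deviations mirror each other, so the correlations cannot settle whether the numbers pair the libraries. The labels name no pairing of libraries across ages. The pairs in the 3W titles, as a replicate block chosen after the data were seen, gave 0 genes higher and 0 lower for the KO change minus the WT change, with 510 at an unadjusted p under 0.05. Deviations of paired KO and WT libraries correlated at 0.178 to 0.482 in 5 cases and at -0.131 in the other, where 2 WT libraries carry the same pair. At the gene ends, a peak over at least 50% of the window was found for 49.3% of the genes called higher and 83.6% of all genes, peaks with a −log10 q of at least 5 for 84.5% of all genes, and RefSeq start windows gave 93.1% of the genes called lower and 91.2% of all genes. Among genes with a 3W mean of at least 1 TPM, 74.7% of those called higher and 90% of all had a peak. The share of calls that were higher was 63.7% and was 54.6% with a pseudocount of 0.1. With 2 libraries at 12W HFD and no known depth, low genes are the least certain.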

Other observations

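Of the 777 called genes 138 were in a gene list and 639 in none, 407 of them higher and 232 lower. The genes named here were chosen after their values were seen, as those with the smallest p outside the lists. Lgmn, the lysosomal protease legumain, had a mean of 92.4 TPM at 3W and 1072 TPM at 12W HFD (log2 change 3.54, SE 0.28, limma adjusted p = 3.1e-05). Fcgr3, an Fc receptor of myeloid cells, had means of 8.64 and 170 TPM (4.17, SE 0.46), and Clec7a, the receptor dectin-1, was listed at 0 at 3W and read 15.2 and 38.7 TPM at 12W HFD. Among the falls, Fmo2, a flavin monooxygenase, had means of 410 and 35.6 TPM (-3.49, SE 0.31), and C1qtnf2, a secreted adiponectin paralog, 485 and 57.8 TPM (-3.09, SE 0.26). Prlr, the prolactin receptor, had means of 58.6 and 6.11 TPM, Cpz, a carboxypeptidase, 235 and 18.6 TPM, and Col4a4, a basement membrane collagen chain, 26.9 and 0.85 TPM. Slc38a4, an amino acid transporter gene, had means of 27.4 and 1.07 TPM (-3.76, SE 0.35).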
